A study of Homo sapiens with 24 samples.

Results

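The Hippo pathway was followed through 10 genes: the LATS kinases LATS1 and LATS2, the upstream kinases STK3 and STK4 with their scaffold SAV1, the coactivators YAP1 and WWTR1, and the output genes CCN1, CCN2 and AMOTL2. They were chosen by symbol (CCN1 is also known as CYR61, CCN2 as CTGF), and all 10 were found among the 29794 genes counted. Polyadenylated RNA was sequenced from Flp-In T-REx 293 cells, a derivative of the human embryonic kidney line HEK293. The cells had been transduced with a lentiviral vector in which a CMV promoter that responds to doxycycline drives GFP, with a synthetic microRNA (miRNA) hairpin in an intron of the cassette, or with the same vector lacking a hairpin (empty vector). Cells of every group, controls included, were selected in 1 mg/ml Geneticin for 6 days and then kept in 1 µg/ml doxycycline for 7 days. Batch 1 held 2 libraries each of empty vector, miR-1 and miR-122 cells, and batch 2 held 3 libraries each of empty vector, miR-155, miR-133a, miR-372, miR-373 and miR-302a cells. Replicates were transduced and maintained separately per the methods, which mention no isolation of clones. Controls came from the same batch as the miRNA in every comparison, so the miRNAs of a batch share their control libraries. miRNA levels were not analysed here.

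In the Hippo pathway, the kinases MST1 and MST2 (encoded by STK4 and STK3), held by the scaffold SAV1, phosphorylate and activate LATS1 and LATS2. The LATS kinases in turn phosphorylate the coactivators YAP and TAZ (encoded by YAP1 and WWTR1), which are then kept in the cytoplasm or degraded. YAP and TAZ that escape phosphorylation enter the nucleus, bind TEAD transcription factors and switch on genes such as CCN1, CCN2 and AMOTL2, so the transcripts of these genes are widely read as the output of the pathway. Phosphorylation and localization are not seen by RNA-seq, and the measurements below are transcript levels.

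A miRNA recognizes a transcript mainly through its seed, bases 2 to 8 of the mature strand, which pairs with a complementary stretch of the 3′UTR. The mature sequences of the 7 miRNAs (RefSeq, GRCh38.p14) are shown with the seed in capitals because the seed decides which members hold a match. The guide strand of each hairpin was taken to be the commonly named arm.
miR-1: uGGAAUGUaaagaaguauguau
miR-122: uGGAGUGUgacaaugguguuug
miR-133a: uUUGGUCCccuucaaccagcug
miR-155: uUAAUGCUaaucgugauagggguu
miR-302a: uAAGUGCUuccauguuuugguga
miR-372: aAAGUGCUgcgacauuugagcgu
miR-373: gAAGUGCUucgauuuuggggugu
The last 3 share the seed AAGUGCU (hereafter the same-seed miRNAs) and differ from one another outside it. The other 4 each have a seed of their own.

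LATS2 (ENSG00000150457.7, chr13:21547175-21635725 of GRCh37, minus strand) was the member with the closest matches to the shared seed. Its annotated 3′UTR of 1834 nt held 2 copies of the 8mer AGCACTTA, complementary to bases 2 to 8 of the same-seed miRNAs and followed by an A. The copies lie at chr13:21548740-21548747 and chr13:21548640-21548647, on the minus strand, the first at bases 262 to 269 and the second at bases 362 to 369 after the stop codon. Both are shown with the transcript bases around them and the 8mer in capitals, since LATS2 was the member that fell furthest with this seed.
LATS2 8mer, bases 262 to 269: tacagtttagaaagAGCACTTAtt
LATS2 8mer, bases 362 to 369: tgtattttatccatAGCACTTAtt
Among the 13257 tested genes with an annotated 3′UTR, 30.0% held some match to this seed (8mer, 7mer-m8 or 7mer-A1, that is, the whole 8mer, the 8mer without its final A, or the 8mer without its first base), 4.27% held an 8mer and 0.287% held 2 or more 8mers. Of the other members, STK4 held 2 weaker 7mer-m8 matches to the seed and SAV1 held 1, and LATS1, STK3, YAP1, WWTR1, CCN1, CCN2 and AMOTL2 held none. A match is a description of the sequence and not a shown site of binding.

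**Figure D1:**
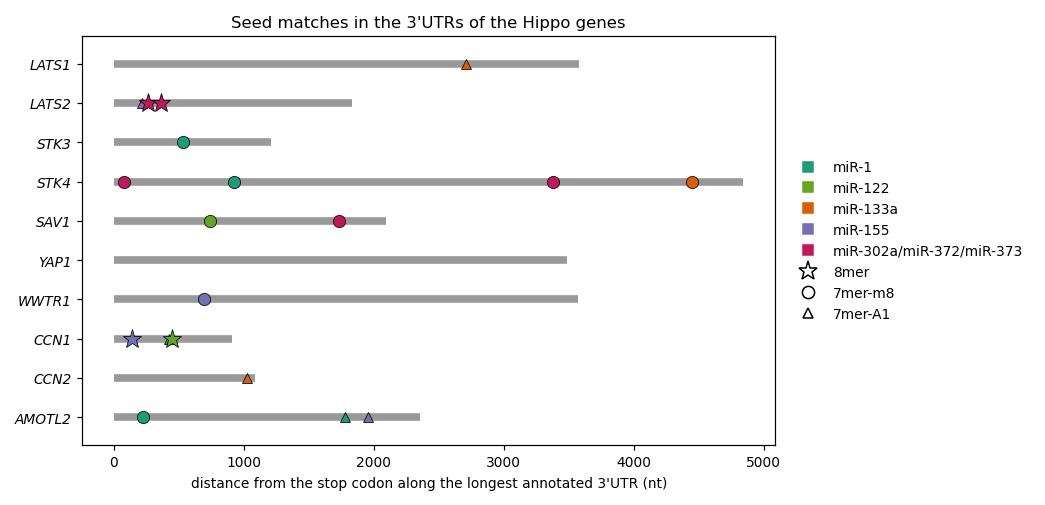
Matches to the miRNA seeds along the longest annotated 3′UTR of each of the 10 genes. The horizontal axis is the distance from the stop codon in nucleotides, each grey bar is a 3′UTR, the colour of a symbol gives the seed and its shape the kind of match. LATS2 carries both of its 8mers to the shared seed (stars) within the first 400 nt, close to a miR-155 7mer-A1 that the first star partly covers, and YAP1 carries no match in 3484 nt.

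For the remaining seeds, 4 of the 10 members matched miR-1 (STK3, STK4, CCN1 and AMOTL2), 2 matched miR-122 (SAV1 and CCN1), 3 matched miR-133a (LATS1, STK4 and CCN2) and 4 matched miR-155 (LATS2, WWTR1, CCN1 and AMOTL2). Over all tested genes with a 3′UTR, 24.1% matched miR-1, 25.7% miR-122, 17.2% miR-133a and 19.1% miR-155. CCN1 held an 8mer to miR-122 and an 8mer to miR-155, and these and those in LATS2 were the 8mers found in the members. The miR-133a match in STK4 is printed because STK4 was lower with that miRNA. It is a 7mer-m8 on the plus strand at chr20:43708264-43708270 (GRCh37), near the end of a 3′UTR of 4845 nt, with the matched bases in capitals.
STK4 7mer-m8, bases 4447 to 4453: accagcttgcactcGGACCAAct

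The libraries held 20153452 to 21595191 exon reads in batch 1 and 13047400 to 35040778 in batch 2. All 10 members passed the filter on low counts in both batches, in which 14348 and 14054 genes were tested. The line's known markers that were found were detected in all 24 libraries, with VIM at 908 CPM or more (read counts scaled to library size with TMM factors). The lowest levels were 176 CPM for KRT8, 85.6 CPM for CDH2, 79.6 CPM for KRT18, 5.28 CPM for PAX2 and 1.26 CPM for NEFM. LHX1 and NEFL, also listed as markers of the line, were not found by symbol among the genes counted. Of the markers of liver, muscle, heart and blood cells, the 9 found in the tables stayed at or under 0.709 CPM in every library. Since the cells were measured in bulk, fewer cells that express a gene and less RNA per cell cannot be told apart.

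Per exon length, LATS2, AMOTL2 and CCN2 were the least abundant of the 10 transcripts. In the empty vector cells of batch 2, STK4 stood highest with 16.5 ± 1.25 RPKM (SD, n = 3; RPKM is CPM per kilobase of exon), followed by YAP1 with 13.8 ± 0.366 RPKM, SAV1 with 11.2 ± 0.744 RPKM, LATS1 with 10.3 ± 0.364 RPKM and WWTR1 with 10.1 ± 0.169 RPKM. The libraries of SAV1 overlapped those of LATS1, and those of LATS1 overlapped those of WWTR1, so these neighbours in the order are not set apart by their spread. STK3 with 8.66 ± 0.956 RPKM and CCN1 with 7.85 ± 0.496 RPKM overlapped as well. LATS2 with 2.73 ± 0.0717 RPKM and AMOTL2 with 2.53 ± 0.234 RPKM were likewise not separated, and CCN2 was lowest with 0.790 ± 0.271 RPKM. CCN2 was represented by only 12 to 69 reads per library over both batches, so its values carry the largest counting error of the 10.

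The first question was how the LATS kinases responded to each miRNA. LATS2 was lower in cells with each of the 3 miRNAs that share the seed, by 42.5% to 52.9%, whereas LATS1 (ENSG00000131023.8, chr6:149979289-150039241 of GRCh37, minus strand), the paralogous kinase, passed the test in none of the comparisons. In the empty vector cells of batch 2, LATS2 stood at 15.4, 15.2 and 15.9 CPM. It stood at 9.33, 7.84 and 8.7 CPM with miR-302a, at 6.67, 5.64 and 9.14 CPM with miR-372, and at 7.49, 9.63 and 9.39 CPM with miR-373. All 9 same-seed libraries lay below every control library, and below every miR-133a and miR-155 library as well.

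By edgeR's quasi-likelihood test with Benjamini-Hochberg adjustment over all genes tested, the log2 fold change of LATS2 was -0.85 with miR-302a (SE 0.15, adjusted p = 0.00159), -1.08 with miR-372 (SE 0.15, adjusted p = 0.000137) and -0.80 with miR-373 (SE 0.15, adjusted p = 0.00313). The equal-weight mean of the 3 groups differed from empty vector by -0.91 (SE 0.12, 95% interval -1.16 to -0.66, edgeR adjusted p = 3.41e-05). LATS2 passed the test in each of these comparisons under every alternative run, including those that left out any 1 library, with the mean of the 3 groups between -0.99 and -0.86. In the same mean, LATS1 differed from empty vector by 0.00 on the log2 scale (95% interval -0.13 to 0.13).

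**Figure D2:**
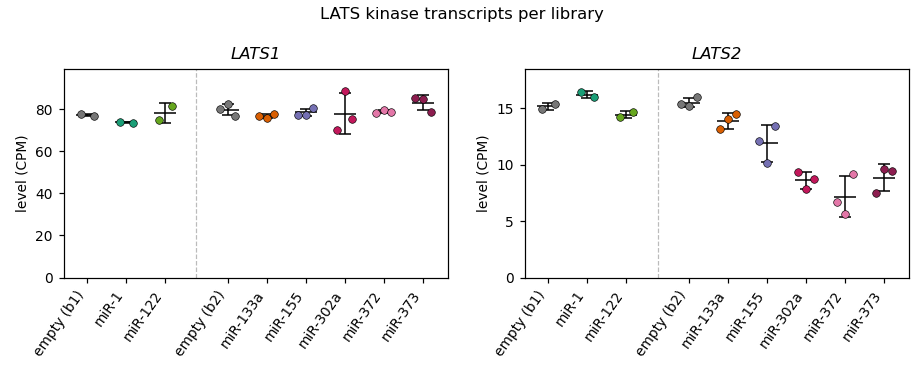
LATS1 and LATS2 levels in CPM (vertical axis) for each of the 24 libraries. Points are libraries, horizontal marks are group means with bars of 1 SD, b1 and b2 are the batches and the dashed line separates them. LATS2 lies between 5.64 and 9.63 CPM in the 9 same-seed libraries and at 15.2 CPM or more in the 3 controls of that batch, and LATS1 lies between 70.0 and 88.8 CPM throughout.

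The decrease of LATS2 with the same seed was also present against the other miRNAs of the batch. The mean of the same-seed groups was below miR-133a by 0.75 on the log2 scale (log2 fold change -0.75, SE 0.12, edgeR adjusted p = 0.000156) and below miR-155 (log2 fold change -0.53, SE 0.12, edgeR adjusted p = 0.00326). Among the 3 same-seed miRNAs, no difference in LATS2 passed the test. The log2 difference was 0.24 between miR-302a and miR-372 (95% interval -0.09 to 0.57), -0.05 between miR-302a and miR-373 (95% interval -0.37 to 0.27) and -0.29 between miR-372 and miR-373 (95% interval -0.61 to 0.04), so differences of up to these bounds remain possible.

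With the remaining miRNAs, LATS2 did not pass the test. It stood at 12.1, 10.2 and 13.5 CPM with miR-155, for which its 3′UTR held a 7mer-A1 match, and at 13.1, 14.1 and 14.4 CPM with miR-133a, for which it held none. Both sets of libraries lay below the controls, by -0.38 on the log2 scale for miR-155 (SE 0.15, edgeR adjusted p = 0.127) and by -0.16 for miR-133a (SE 0.15, edgeR adjusted p = 0.583). In batch 1, LATS2 stood at 14.9 and 15.4 CPM in empty vector cells, at 16.4 and 16 CPM with miR-1 and at 14.2 and 14.6 CPM with miR-122.

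Expressed as a share of the LATS transcripts per length, LATS2 made up 21.0% ± 1.02 (SD, n = 3) of the summed LATS1 and LATS2 RPKM in the empty vector cells of batch 2. This share was 13.3% ± 2.35 with miR-302a, 11% ± 2.46 with miR-372 and 12.7% ± 1.75 with miR-373. The highest same-seed library, at 15.4%, lay below the lowest control library, at 20.1%. The share was 17.1% ± 1.73 with miR-155 and 19.8% ± 0.792 with miR-133a. LATS1 was the more abundant LATS transcript in every group.

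Counted over the members, 2 of 10 passed the test with miR-302a, both lower (LATS2 and STK4), where 7.88% of all 14054 genes tested passed and 4.85% were lower. With miR-372, LATS2 alone of the 10 passed, against 11.4% of all genes and 6.56% lower. With miR-373, LATS2 again passed alone, against 5.13% of all genes and 3.3% lower. In the mean of the 3 groups, 2 of 10 passed, both lower (LATS2 and CCN1), against 15.4% of all genes and 9.11% lower. The median log2 fold change of the 10 members was -0.13 with miR-302a, -0.14 with miR-372 and -0.10 with miR-373, beside 0.00 over all genes tested in each case.

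Of the upstream kinases, STK4 (ENSG00000101109.7, chr20:43595135-43708662, plus strand) was somewhat lower with miR-302a. It stood at 97.6, 114 and 107 CPM in empty vector cells and at 81.7, 97.0 and 85.5 CPM with miR-302a, which is -0.27 on the log2 scale (SE 0.08, edgeR adjusted p = 0.0472). The highest miR-302a library lay just below the lowest control. The call was lost without any 1 of miR-302a replicates 1 and 3 and control replicates 2 and 3, with log2 fold changes from -0.26 to -0.21 and adjusted p up to 0.229. It was also lost for STK4 with DESeq2 size factors (adjusted p = 0.0565), without the filter on low counts (adjusted p = 0.0747) and in a fit of only the groups compared (adjusted p = 0.0845). With miR-372 (97.7, 88.7 and 99.2 CPM) and miR-373 (93.5, 101 and 96.0 CPM) its libraries overlapped the controls, and the log2 fold changes were -0.16 and -0.13 with edgeR adjusted p of 0.224 and 0.435. In the mean of the 3 groups STK4 was at -0.18 (edgeR adjusted p = 0.0618), which passed without control replicate 1 (-0.24, adjusted p = 0.0491) and without miR-302a replicate 2 (-0.21, adjusted p = 0.0226).

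STK3 and SAV1 did not pass the test with the shared seed. In the mean of the 3 groups, STK3 differed from empty vector by 0.03 (95% interval -0.12 to 0.17) and SAV1 by 0.04 (95% interval -0.13 to 0.20) on the log2 scale. With the single miRNAs, STK3 lay between -0.02 and 0.06, SAV1 between 0.02 and 0.05 and LATS1 between -0.03 and 0.05. STK3 held no match to the seed and SAV1 held 1.

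Downstream of LATS, no coactivator or output transcript passed the test as higher in the same-seed cells, and CCN1 was lower. CCN1 (ENSG00000142871.11, chr1:86046444-86050272, plus strand), a secreted matricellular protein, stood at 19.0, 16.7 and 18.2 CPM in empty vector cells. It stood at 15.7, 13.8 and 14.2 CPM with miR-302a, at 13.8, 17.1 and 14.2 CPM with miR-372 and at 14.3, 15.8 and 14.4 CPM with miR-373. All 9 libraries but miR-372 replicate 2 lay below every control.

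The mean of the 3 groups was lower in CCN1 by 17.7% (log2 fold change -0.28, SE 0.09, edgeR adjusted p = 0.0402). This call was lost in 9 of the 12 fits that left out 1 library, namely each of the 3 controls, miR-302a replicates 2 and 3, and replicates 1 and 3 of miR-372 and of miR-373. The lowest magnitude among those 9 fits was a log2 fold change of -0.24 without control replicate 1, with an adjusted p of 0.174. CCN1 also lost the call without the filter on low counts (adjusted p = 0.0784) and in a fit of only the groups compared (adjusted p = 0.065). No single miRNA passed the test for CCN1, with edgeR adjusted p of 0.103, 0.133 and 0.18.

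WWTR1 (ENSG00000018408.10, chr3:149235022-149454501, minus strand), which encodes TAZ, stood at 60.8, 62.8 and 62.0 CPM in empty vector cells and between 50.5 and 59.0 CPM in the 9 same-seed libraries, which did not overlap the controls. The log2 fold change of the mean was -0.16 (SE 0.06, edgeR adjusted p = 0.0745), and it passed with the replicate number as a block (-0.16, adjusted p = 0.0331) and without miR-302a replicate 2 (-0.17, adjusted p = 0.0485). YAP1 (ENSG00000137693.9, chr11:101981178-102104155, plus strand), AMOTL2 (ENSG00000114019.10, chr3:134074189-134094321, minus strand) and CCN2 (ENSG00000118523.5, chr6:132269316-132272512, minus strand) did not pass. Their log2 fold changes in the mean of the 3 groups were -0.12 for YAP1 (95% interval -0.32 to 0.08), -0.18 for AMOTL2 (95% interval -0.42 to 0.05) and 0.11 for CCN2 (95% interval -0.38 to 0.59). With the single miRNAs, the log2 fold changes lay between -0.15 and -0.08 for YAP1, -0.17 and -0.14 for WWTR1, -0.23 and -0.12 for AMOTL2 and 0.07 and 0.17 for CCN2, and none passed. AMOTL2 encodes an angiomotin-like protein that binds YAP, and CCN2 a secreted matricellular protein.

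**Figure D3:**
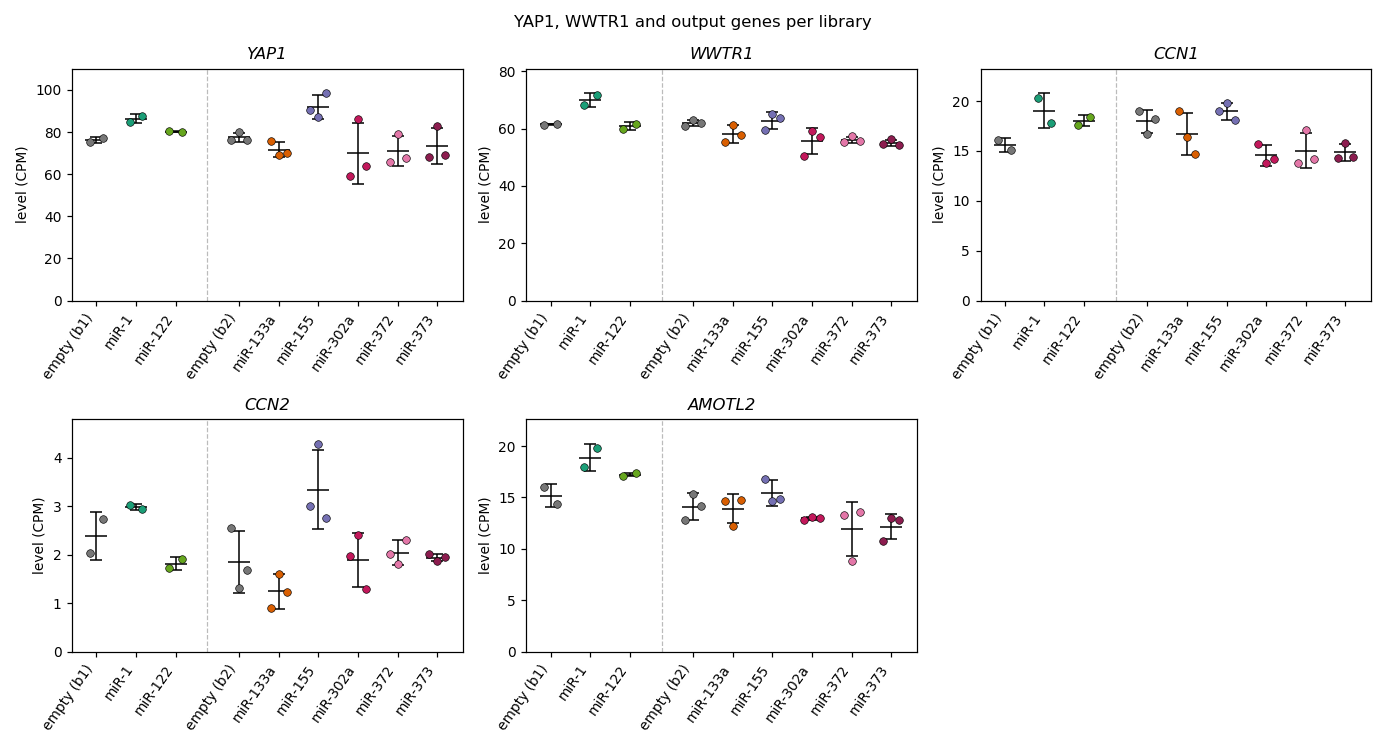
Levels in CPM (vertical axes, each from 0) of YAP1, WWTR1, CCN1, CCN2 and AMOTL2 in each library. Points are libraries, horizontal marks are group means with bars of 1 SD, b1 and b2 are the batches and the dashed lines separate them. The 9 same-seed libraries lie below the controls of batch 2 for WWTR1, and the 3 miR-155 libraries lie at or above 87.2 CPM for YAP1 and at or above 2.76 CPM for CCN2.

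Between the same-seed miRNAs, 0 of 10 members passed in each of the 3 pairwise comparisons by edgeR's quasi-likelihood test, by its likelihood ratio test and by DESeq2, and 0 of 10 had an unadjusted p under 0.05. Over all genes 0.00% passed the quasi-likelihood test in each (1, 3 and 1 genes passed the likelihood ratio test and 0, 3 and 1 DESeq2), and 0.868%, 1.31% and 1.11% had an unadjusted p under 0.05 for miR-302a against miR-372, miR-302a against miR-373 and miR-372 against miR-373. Those shares lie under the share of 0.05 that this threshold passes when nothing differs. The test was therefore cautious here, and the lack of calls does not show that the same-seed miRNAs act alike. YAP1 varied within the same-seed groups more than between them. Replicate 2 was the highest library of each, at 86.4 CPM with miR-302a, 79.0 CPM with miR-372 and 83.1 CPM with miR-373, while the other 6 libraries lay between 59.1 and 69.3 CPM. Without miR-302a replicate 2, the YAP1 difference between miR-302a and empty vector was -0.33 on the log2 scale (edgeR adjusted p = 0.0366), against -0.15 with it (edgeR adjusted p = 0.457).

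With miR-133a, both MST kinase transcripts were lower, and LATS2 did not pass the test. Of the 10 members, 2 passed the test, both lower, where 5.34% of all genes passed and 3.97% were lower. STK4 stood at 78.4, 67.3 and 73.1 CPM with miR-133a against 97.6, 114 and 107 CPM in empty vector cells. All miR-133a libraries lay below all controls, and the level fell by 31.3% (log2 fold change -0.54, SE 0.08, edgeR adjusted p = 0.000281). STK4 passed in each of the 13 alternatives, between -0.60 and -0.49.

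STK3 (ENSG00000104375.11, chr8:99383456-99955055, minus strand) stood at 24.3, 23.2 and 25.0 CPM with miR-133a against 34.7, 30.6 and 27.8 CPM in empty vector cells. The groups did not overlap, and the log2 fold change was -0.36 (SE 0.09, edgeR adjusted p = 0.0169). The call was lost in 5 of the 6 fits that left out 1 library, namely each of the 3 miR-133a libraries and control replicates 1 and 2, with log2 fold changes between -0.38 and -0.27 and adjusted p up to 0.106. STK4 held the 7mer-m8 match to the miR-133a seed printed above, whereas the STK3 3′UTR of 1211 nt held none. The annotation places 6 other genes, small RNAs, pseudogenes and an unclassified transcript, on the same strand within STK3, and their part in its count was not tested.

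Compared directly, the MST kinases were lower with miR-133a than with the other miRNAs of the batch. STK4 was higher in the mean of the same-seed groups than with miR-133a by 0.36 on the log2 scale (SE 0.07, edgeR adjusted p = 0.000784), and STK3 by 0.38 (SE 0.07, edgeR adjusted p = 0.000645). Together with the lower LATS2, 3 of 10 members passed in this comparison, against 20.5% of all genes (9.91% lower and 10.5% higher). CCN2 was at 0.66 on the log2 scale (SE 0.25, edgeR adjusted p = 0.0694) and passed in the likelihood ratio test (adjusted p = 0.0446) and without miR-302a replicate 3 (0.73, adjusted p = 0.0422). The scaffold SAV1 (ENSG00000151748.10, chr14:51098776-51135024, minus strand) stood between 55.4 and 65.8 CPM with miR-133a and between 49.9 and 56.9 CPM in empty vector cells (0.16 on the log2 scale, SE 0.10, edgeR adjusted p = 0.378). LATS1, which held a 7mer-A1 match to the miR-133a seed, differed by -0.06 (SE 0.08, edgeR adjusted p = 0.715), and CCN2, which also held a 7mer-A1, by -0.56 (SE 0.31, edgeR adjusted p = 0.322). YAP1 (-0.11), WWTR1 (-0.09), CCN1 (-0.11) and AMOTL2 (-0.02) did not pass against empty vector either.

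**Figure D4:**
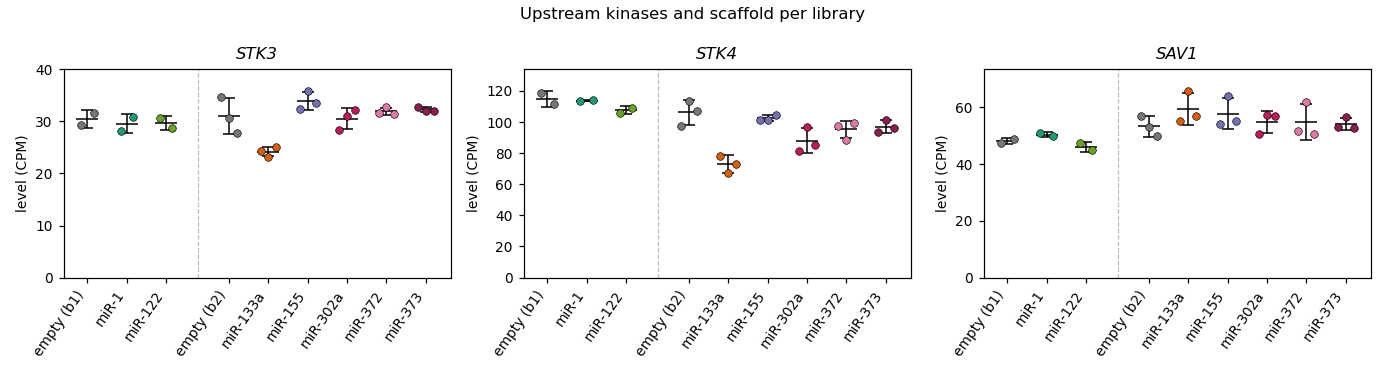
Levels in CPM (vertical axes, each from 0) of the MST kinase genes STK3 and STK4 and of the scaffold gene SAV1 in each library. Points are libraries, horizontal marks are group means with bars of 1 SD, b1 and b2 are the batches and the dashed lines separate them. The 3 miR-133a libraries are the lowest for STK4, at 67.3 to 78.4 CPM, and for STK3, at 23.2 to 25.0 CPM.

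With miR-155, 0 of 10 members passed edgeR's quasi-likelihood test, where 7.63% of all genes passed. An unadjusted p under 0.05 was reached by 3 of 10, LATS2 (lower), YAP1 and CCN2 (both higher), beside 23.8% of all genes, and 1 of the 10 passed in DESeq2. CCN2 stood at 3.00, 4.28 and 2.76 CPM with miR-155 (46, 56 and 39 reads) and at 2.55, 1.32 and 1.68 CPM in empty vector cells (34, 20 and 24 reads). All miR-155 libraries lay above all controls, with a log2 fold change of 0.86 (SE 0.27, 95% interval 0.30 to 1.42, edgeR adjusted p = 0.0555). It passed in DESeq2 (adjusted p = 0.0477), in the likelihood ratio test (adjusted p = 0.022), without the filter on low counts (adjusted p = 0.0385), with the replicate block (adjusted p = 0.0426) and without control replicate 1 (log2 fold change 1.15, adjusted p = 0.0278).

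YAP1 stood at 90.4, 87.2 and 98.4 CPM with miR-155, above the 76.4, 79.9 and 76.4 CPM of the controls (log2 fold change 0.25, SE 0.11, edgeR adjusted p = 0.198). CCN1, with an 8mer to miR-155 in its 3′UTR, stood at 19.0, 19.8 and 18.1 CPM and overlapped the controls (log2 fold change 0.08, SE 0.11, edgeR adjusted p = 0.7). WWTR1 and AMOTL2, with weaker matches, differed by 0.02 and 0.13 on the log2 scale. The kinases and their scaffold also did not pass, with LATS1 at -0.03, STK3 at 0.13, STK4 at -0.05 and SAV1 at 0.12. The median of the 10 members was 0.10, beside 0.01 over all genes.

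Direct comparisons with miR-155 passed for more members than the comparisons with empty vector. In the mean of the same-seed groups, 6 of 10 members were lower than with miR-155, against 27.1% of all genes that passed and 13.9% that were lower. They were LATS2 (given above), the coactivators YAP1 (log2 fold change -0.37, edgeR adjusted p = 0.00576) and WWTR1 (-0.18, edgeR adjusted p = 0.0282), and all 3 output genes, CCN1 (-0.36, edgeR adjusted p = 0.0052), CCN2 (-0.75, edgeR adjusted p = 0.0106) and AMOTL2 (-0.31, edgeR adjusted p = 0.0445). For all 6, the 9 same-seed libraries lay below the 3 miR-155 libraries. LATS2, YAP1 and CCN1 passed in all 19 alternatives of this comparison.

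The other 3 of those members lost the call in some alternatives. CCN2 lost the call without miR-155 replicate 2 (-0.54, adjusted p = 0.114). WWTR1 lost it without miR-155 replicate 2 or 3 or miR-372 replicate 1 (adjusted p up to 0.144), without the filter on low counts and in a fit of only the groups compared. AMOTL2 lost it without any 1 of the miR-155 libraries, miR-302a replicates 1 and 3 or miR-373 replicate 1 (adjusted p up to 0.202), and in a fit of only the groups compared (adjusted p = 0.0818).

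Between miR-133a and miR-155, 4 of 10 members were lower with miR-133a, against 16.7% of all genes that passed and 8.61% that were lower. CCN2 stood at 0.899, 1.61 and 1.22 CPM with miR-133a (12, 22 and 18 reads), below all miR-155 libraries, at -1.42 on the log2 scale (SE 0.28, edgeR adjusted p = 0.00165), and passed in all 12 alternatives. STK3 and STK4 were each lower by 0.49 on the log2 scale (log2 fold changes -0.49 and -0.49, edgeR adjusted p of 0.000486 and 0.000297), also in every alternative. YAP1 was lower (log2 fold change -0.36, edgeR adjusted p = 0.0366), a call lost without any 1 of the miR-133a libraries and without miR-155 replicate 1 or 3 (adjusted p up to 0.131).

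In batch 1, miR-1 gave the largest number of members called against empty vector. The coactivators YAP1 and WWTR1 and the output genes CCN1 and AMOTL2 were higher, 4 of 10 members, where 24.5% of all 14348 genes passed and 10.8% were higher. The changes were small, between 13% and 24.1%. The median of the 10 members was 0.14 on the log2 scale, beside 0.00 over all genes.

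YAP1 stood at 84.7 and 87.9 CPM with miR-1 against 75.3 and 77.4 CPM in empty vector cells (log2 fold change 0.18, SE 0.05, edgeR adjusted p = 0.0103). WWTR1 stood at 68.2 and 71.5 CPM against 61.3 and 61.7 CPM (log2 fold change 0.18, SE 0.05, edgeR adjusted p = 0.0119). Both miR-1 libraries lay above both controls in each case.

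AMOTL2 stood at 17.9 and 19.8 CPM with miR-1 against 16 and 14.4 CPM (log2 fold change 0.31, SE 0.09, edgeR adjusted p = 0.0141), although its 3′UTR held a 7mer-m8 and a 7mer-A1 match to the miR-1 seed. CCN1, with a 7mer-A1, stood at 20.3 and 17.8 CPM against 16.1 and 15.1 CPM (log2 fold change 0.29, SE 0.09, edgeR adjusted p = 0.0224). These 2 genes were also higher in both miR-1 libraries than in both controls. DESeq2 called 0 of the 4 (adjusted p from 0.0573 to 0.132).

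Leaving out miR-1 replicate 2 ended the call for YAP1 (0.16, adjusted p = 0.103), WWTR1 (0.16, adjusted p = 0.124) and AMOTL2 (0.25, adjusted p = 0.144). Leaving out control replicate 2 ended it for AMOTL2 (0.24, adjusted p = 0.0848) and CCN1 (0.25, adjusted p = 0.0779), and leaving out miR-1 replicate 1 moved CCN1 to 0.19 (adjusted p = 0.272). STK3 and STK4, each with a 7mer-m8 match to the miR-1 seed, differed from empty vector by -0.05 (95% interval -0.19 to 0.10) and -0.01 (95% interval -0.11 to 0.08) on the log2 scale. LATS1 (-0.06), LATS2 (0.10), SAV1 (0.07) and CCN2 (0.32) did not pass either.

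With miR-122, 0 of 10 members passed edgeR's quasi-likelihood test or DESeq2, and 1 of 10 (CCN1) had an unadjusted p under 0.05, where 5.92% of all genes passed and 19.7% had an unadjusted p under 0.05. CCN1, with an 8mer to the miR-122 seed, stood at 17.6 and 18.4 CPM, above the controls (log2 fold change 0.21, SE 0.09, edgeR adjusted p = 0.197). SAV1, with a 7mer-m8, stood at 47.4 and 44.9 CPM against 47.5 and 48.9 CPM (log2 fold change -0.06, SE 0.06, edgeR adjusted p = 0.591). On the log2 scale the kinases stood at 0.02 (LATS1), -0.07 (LATS2), -0.04 (STK3) and -0.10 (STK4), and the rest at 0.07 (YAP1), -0.02 (WWTR1), 0.18 (AMOTL2) and -0.39 (CCN2).

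Between miR-1 and miR-122, 2 of 10 members passed, both higher with miR-1, against 31.2% of all genes that passed and 15.2% that were higher. CCN2 stood at 3.03 and 2.94 CPM with miR-1 (65 and 61 reads) and at 1.72 and 1.91 CPM with miR-122 (35 and 40 reads), which is 0.72 on the log2 scale (SE 0.21, edgeR adjusted p = 0.0157). The empty vector libraries, at 2.03 and 2.74 CPM, lay between the groups. WWTR1 was higher by 0.20 (SE 0.05, edgeR adjusted p = 0.00514). The CCN2 call was lost without any 1 of the 4 libraries (adjusted p from 0.0548 to 0.107) and in DESeq2, and the WWTR1 call without miR-1 replicate 2 or miR-122 replicate 1.

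**Figure D5:**
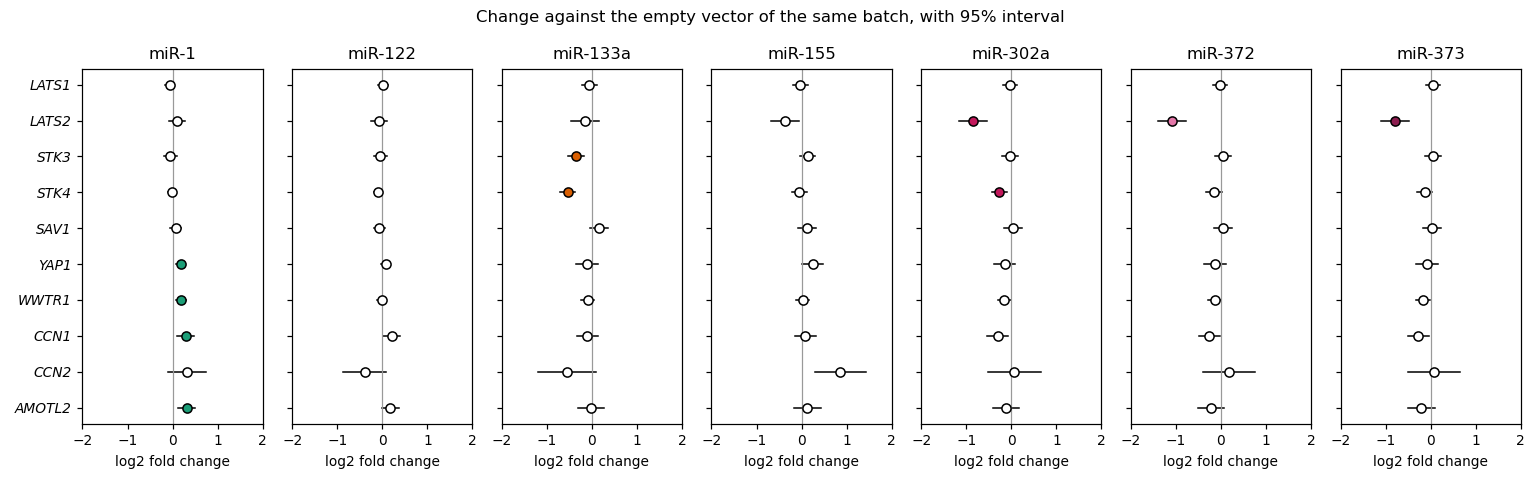
Log2 fold change of each of the 10 genes against the empty vector of the same batch (horizontal axes), with bars for the 95% interval, 1 panel per miRNA. Filled points passed an adjusted p of 0.05 and open points did not. LATS2 is filled in the panels of the same-seed miRNAs, at -0.85, -1.08 and -0.80, STK4 also with miR-302a, at -0.27, STK3 and STK4 with miR-133a, and YAP1, WWTR1, CCN1 and AMOTL2, all above 0, with miR-1.

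The rest of the pathway was described from 3 further lists. The first held 44 partners and upstream regulators of the kinases, of which 42 were tested in each batch. With the same-seed miRNAs (mean of the 3 groups), 4 of 42 were lower and 1 higher, that is, 11.9%, below the 15.4% of all genes that passed, with a median of -0.04 on the log2 scale. FAT4, an atypical cadherin upstream of the kinases, was lower in all 3 groups, with levels of 9.55, 8.99 and 11.4 CPM with miR-302a, miR-372 and then miR-373, against 20.3 CPM in empty vector cells. Its log2 fold changes were -1.08, -1.14 and -0.83 (edgeR adjusted p of 0.00807, 0.00393 and 0.0412), and its 3′UTR held 2 7mer matches to the shared seed. AMOTL1, which binds YAP as AMOTL2 does and held an 8mer to the seed, was lower in the mean (log2 fold change -0.32, edgeR adjusted p = 0.0376), although its libraries overlapped the controls. MARK4, a microtubule-affinity kinase with 1 7mer match to the shared seed, was higher (log2 fold change 0.38, edgeR adjusted p = 0.0144), also with miR-302a (0.41) and miR-372 (0.43) alone. TP53BP2, with no match to the shared seed, was lower with miR-302a (-0.23, edgeR adjusted p = 0.0497) and miR-372 (-0.27, edgeR adjusted p = 0.0148).

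With miR-155, 4 of 42 regulators were lower and 0 higher, 9.52% beside 7.63% of all genes. The lowest were WWC1 (KIBRA, which supports LATS activation), at -0.84 (edgeR adjusted p = 2.35e-06), and the LATS-related kinase STK38L, at -0.57 (edgeR adjusted p = 0.000418). WWC1 held an 8mer to miR-155 and STK38L a 7mer match. With miR-1, 2 were lower, the cadherin DCHS1 (-0.78, 1.97 CPM against 3.39 CPM in empty vector cells) and WWC1 (-0.18). WWC1 held an 8mer to miR-1 and DCHS1 no match. A further 7 were higher, with CSNK1E (0.22) and RASSF1 (0.24) the furthest, so that 21.4% of the list passed beside 24.5% of all genes. With miR-122, STK38L (-0.28, edgeR adjusted p = 0.00126), which held a 7mer match to miR-122, was the 1 regulator called (2.38%, beside 5.92% of all genes). With miR-133a, 0 of 42 passed, beside 5.34% of all genes.

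The second list held the TEAD transcription factors and their VGLL cofactors, 7 of which were tested. TEAD1, a DNA-binding partner of YAP and TAZ, was higher with miR-1 (log2 fold change 0.29, edgeR adjusted p = 0.00016). It was lower with miR-122 (-0.24, edgeR adjusted p = 0.00368) and in the mean of the same-seed groups (-0.29, edgeR adjusted p = 0.0331). Its 3′UTR held 1 7mer match each to miR-1, miR-122 and the shared seed, and 3 7mer matches to miR-133a, with which TEAD1 did not pass. The same-seed libraries of TEAD1 overlapped the controls. VGLL2, with no match to the shared seed or miR-155, was lower in the same-seed mean (-0.78, edgeR adjusted p = 0.0039) and with miR-155 (-0.95, edgeR adjusted p = 0.0114). It stood at 1.92 and 1.71 CPM there, against 3.28 CPM in empty vector cells. VGLL4, a cofactor that competes with YAP for TEADs, was lower with miR-1 (-0.17, edgeR adjusted p = 0.0218). VGLL2 was also lower with miR-302a (-0.94) and miR-372 (-0.95) alone, and VGLL3 with miR-372 (-0.41, edgeR adjusted p = 0.0374). With miR-133a, 0 of 7 passed. In all, 2 of 7 passed in the same-seed mean (TEAD1 and VGLL2) and 2 of 7 with miR-1 (TEAD1 and VGLL4), beside 15.4% and 24.5% of all genes. With miR-155 1 of 7 passed (VGLL2) and with miR-122 1 of 7 (TEAD1), beside 7.63% and 5.92%.

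The third list held 27 genes reported as targets of YAP or TAZ with TEADs, of which 22 were tested in batch 1 and 21 in batch 2. AJUBA and PTPN14 were in the first list as well. In the mean of the same-seed groups, 1 was lower (NT5E, -0.95) and 1 higher (BIRC5, 0.25), 9.52% beside 15.4% of all genes, and the median was -0.03. NT5E stood low, at 0.553 CPM in the same-seed libraries and 1.11 CPM in empty vector cells. BIRC5 was also higher with miR-372 alone (0.29, edgeR adjusted p = 0.0289). With miR-1, 0 were lower and 3 higher (13.6%, beside 24.5% of all genes that passed and 10.8% that were higher), and the median was 0.00. Among the 3 higher were BIRC5 (0.22, edgeR adjusted p = 0.000686) and ANKRD1 (log2 fold change 1.30, SE 0.45, edgeR adjusted p = 0.0401). ANKRD1 stood at 0.383 CPM in empty vector cells and 0.954 CPM with miR-1. With miR-155, 2 were lower (CCDC80, -0.89, and F3, -0.81) and 2 higher (MYOF, 1.06, and GADD45A, 0.47), 19% beside 7.63% of all genes. In empty vector cells GADD45A stood at 57.4 CPM, and CCDC80, F3 and MYOF at only 6.24, 4.99 and 1.48 CPM. With miR-122, LMNB2, a nuclear lamin with an 8mer to miR-122, fell by 52.7% (log2 fold change -1.08, edgeR adjusted p = 1.49e-13) and DOCK5 was lower (-0.28, edgeR adjusted p = 0.0201), 9.09% of the list beside 5.92% of all genes. With miR-133a only BIRC5 passed (0.31, edgeR adjusted p = 0.0326), 4.76% beside 5.34%.

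TEADs bind a core written GGAATG, and the 300 bases around the transcript start were read for it on both strands in the 8 members with a RefSeq promoter (GRCh38.p14). It was present in CCN2 (3 copies), LATS2 and YAP1, 3 of 8 members, against 14% of 27305 promoters. The first of the CCN2 copies, at chr6:131951536-131951541, starts 169 bases before the transcript start, and the second, at chr6:131951471-131951476, starts 104 bases before it. They are printed with the core in capitals, 5′ to 3′ on the minus strand, as the output gene whose promoter held the most copies.
CCN2 first copy: tttcagacggaGGAATGctgagtgtcaa
CCN2 second copy: gaaggtggggaGGAATGcgaggaatgtc
The same 6 letters, with U for T, are bases 2 to 7 of miR-1. A motif match is not a shown site of binding.

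The genes whose log2 CPM followed LATS2 most closely over the 18 libraries of batch 2 were TMC5 (Pearson's r = 0.941), RBL2 (0.940), TAPBP (0.939), MCTP1 (0.935) and CLSTN2 (0.933), out of 12340 genes. For CCN2 they were RDH11 (0.871), HADHA (0.855), CPVL (0.853), TUBB (0.850) and PABIR2 (0.849). These libraries share groups and controls, so the correlations describe a common pattern over groups and are given without a test. Among the members, LATS2 and LATS1 had r = -0.18, LATS2 and AMOTL2 0.65, LATS2 and CCN1 0.54, and STK3 and STK4 0.74 over the same libraries.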

How the data were processed

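After adapter trimming, the authors mapped reads to hg19 using TopHat 2.1.1 and obtained strand-specific exon counts per gene using featureCounts, keeping alignments of high mapping quality. The counts were deposited unnormalized as a table per batch. Tables of the authors' own comparisons (fold changes, p-values and q-values) were not used. The deposited exon length was used for RPKM only. No per-sample column was left out (0 unused).

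Each batch was fitted on its own with edgeR 4.0.16 in R 4.3.3: filterByExpr (minimum count 10), TMM, quasi-likelihood test with all groups of the batch in the fit, prior count 0.125, Benjamini-Hochberg adjustment over all genes tested and a threshold of 0.05. The SE was derived from the F statistic, and intervals cover 95%. The functions were tested on simulated data. Counting error shrinks with depth, so a gene with few reads such as CCN2 has the widest intervals. The counts of any pair of replicates in a group differed by more than sampling noise (chi-square per degree of freedom 1.83 to 35.7). Each library was treated as a replicate because the methods state separate transduction, which this spread does not itself show.

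Symbols, coordinates and the longest 3′UTR per gene came from a GENCODE annotation of GRCh37, which hg19 is based on, and 28543 genes had a symbol. Whether YAP1 reads were lost to its 3 annotated pseudogenes was not tested. All 7 mature miRNAs matched in RefSeq. Python 3.11.15 with pysam 0.24.0 was used for sequences.

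The members and lists were chosen with earlier results of these data known. All 10 members were named in each comparison with empty vector. From each further list, the 2 lowest and 2 highest called genes were named, and the 5 genes most like LATS2 and CCN2 were taken among genes whose mean log2 CPM reached 1.

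Pairing by replicate number was checked from the correlation, across genes, of deviations from group means. All 3 values exceeded 0.1 for miR-133a with miR-155 (0.407, 0.61 and 0.448), miR-133a with miR-372 (0.342, 0.538 and 0.413), miR-155 with miR-372 (0.461, 0.817 and 0.73), miR-155 with miR-302a (0.135, 0.142 and 0.108) and miR-302a with miR-372 (0.258, 0.27 and 0.119). They did not for any other pair of groups, and in comparisons between miRNAs the block changed no member's call. Alternatives were DESeq2 size factors, the DESeq2 1.42.0 Wald test, edgeR's likelihood ratio test, other filters on low counts, a fit of only the groups compared, a replicate block and leaving out each library.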

Additional observations from a re-analysis of the deposited data

How the results depend on the processing

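LATS2 passed the test with miR-302a, miR-372, miR-373 and their mean in all alternatives, as did STK4 with miR-133a. CCN2 passed between miR-133a and miR-155 in all 12 alternatives that tested it. The filter of over 1 CPM in every library left CCN2 out in batch 2. No member's called value changed sign. Of 2078 repeats for single members, 58 lost a call, 12 gained one and 2008 did neither. The number of members called with miR-1 was 0 in the DESeq2 Wald test in place of 4, and 1 to 4 when a library was left out. Between miR-1 and miR-122 it was 1 in the DESeq2 Wald test in place of 2, and 0 to 1 when a library was left out. With miR-155 it was 1 in place of 0 in the DESeq2 Wald test, the edgeR likelihood ratio test, the fit without a filter and the fit with the replicate block, and 0 to 1 when a library was left out. With miR-302a it was 1 in place of 2 with DESeq2 size factors, without a filter and in a fit of only the groups compared, and 1 to 3 when a library was left out. In the mean of the same-seed groups it was 1 in place of 2 without a filter and in a fit of only the groups compared, and 1 to 3 when a library was left out. With miR-133a it was 1 to 2, and between the same-seed groups and miR-155 it was 3 to 6, when a library was left out. The number of calls over all genes also moved between these fits. In the DESeq2 Wald test it was 1785 in place of 3520 with miR-1 and 1407 in place of 1073 with miR-155. With miR-302a it was 479 without miR-302a replicate 1 and 1764 without replicate 2, in place of 1107. In the same-seed mean it was 1100 without control replicate 2 and 2525 without miR-302a replicate 2, in place of 2164. The cause of these differences was not tested. Counting only 8mer matches, the number of members with a match was 1 each for miR-122, miR-155 and the shared seed and 0 each for miR-1 and miR-133a, since this definition admits fewer matches. Apart from the CCN2 and WWTR1 calls named above, the replicate block changed no member's call against empty vector. In batch 1 the controls correlated negatively with the same-numbered libraries (-0.234 with miR-1, -0.138 with miR-122), and a block with the control numbers crossed, chosen after seeing the data, called 4 and 0 members. In batch 1, leaving out a library left 1 in its group, which was assumed to vary like the other groups. Depth limits CCN2 most, with 12 to 69 reads per library, followed by LATS2 (72 to 352 reads), AMOTL2 (113 to 451 reads) and CCN1 (185 to 510 reads).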
